A study of Mus musculus with 18 samples.

Results

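Hepatocyte growth factor and macrophage-stimulating protein, their receptors, and the protease and protease inhibitors that govern their activation were followed through fibroblasts and tumor cells of the mouse pancreas. The 7 genes, of 23951 in the deposited table, were chosen by name, with earlier results of these data known. They are the ligands Hgf and Mst1, the receptors Met and Mst1r, the activating protease St14 and the inhibitors Spint1 and Spint2. Sorted cells gave 18 poly(A) RNA libraries in 5 groups. NPF (n = 3) are fibroblasts of normal pancreas, WT_CAF (n = 5) and KO_CAF (n = 3) are cancer-associated fibroblasts, and WT_tumor (n = 4) and KO_tumor (n = 3) are tumor cells, where KO stands for loss of Saa3. Saa3 encodes an acute-phase serum amyloid protein. All mice, those of the normal fibroblasts included, carried the Elas-tTA/tetO-Cre transgenes, in which the elastase promoter, active in acinar cells, drives the transactivator that switches on Cre, and the Rosa26+/EYFP reporter. NPF mice were K-Ras+/+. Mice of the other 4 groups were K-Ras+/LSLG12Vgeo and Trp53lox/lox, and those of both KO groups were Saa3-/- as well. The sources used here name neither ages nor sort markers, nor say whether both cell types were taken from 1 animal. Replicates were biological per the series design, and replicate numbers only name libraries.

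HGF and MST1 are secreted, plasminogen-related proteins that are made as inactive single chains and must be cut to act. HGF binds the receptor tyrosine kinase MET, and MST1 binds its relative RON, the product of Mst1r, and in many tissues HGF comes from mesenchymal cells while MET sits on epithelium. Matriptase (St14) is a membrane serine protease of epithelial cells that can cut both precursors, and the Kunitz-type inhibitors HAI-1 (Spint1) and HAI-2 (Spint2) hold it and related proteases in check.

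Expression was given as FPKM, the fragments per length of transcript and per mapped fragments, so levels of different genes can be set side by side. FPKM summed to 396646 to 919859 per library, 10657 to 11670 genes reached 1 FPKM, and the number of fragments behind a value is unknown. Saa3 itself stood at 0 to 1.85 FPKM in the 6 knockout libraries and at 2.75 to 4278 in the other 12. Labels were checked against marker genes: the 9 fibroblast markers summed to 837 to 17930 FPKM in the 11 fibroblast libraries and to 11.02 to 595 in the 7 tumor cell libraries, and the 8 epithelial markers to 2.62 to 627 and 2925 to 8551 FPKM. Col1a1 and Col1a2 in KO_CAF and Col3a1 in WT_CAF and KO_CAF were listed at 0 in some libraries, which lowers their sums. Leukocyte markers summed to 6.08 to 142 FPKM over all 18 libraries. The 6 acinar markers summed to 836 to 31412 FPKM in NPF, against 21.9 to 390 in WT_CAF, 12.7 to 99.02 in KO_CAF and 8.55 to 15338 in tumor cells, and in NPF 2 and 3 this was more than the fibroblast markers. The library labelled WT_CAF 1 stood apart from its group, with 9.80 FPKM of the fibroblast receptor Pdgfra against 81.0 to 121 in WT_CAF 2 to 5, and 119 FPKM of the keratin Krt19 against 7.04 to 41.6. Of the 11 fibroblast libraries it had the lowest sum of fibroblast markers, 837 FPKM, and the highest of epithelial markers, 627 FPKM. Not all epithelial markers went this way. Its Epcam, 0.220 FPKM, was the lowest of WT_CAF. Its mean log2(FPKM + 1) over the 8 epithelial markers, 3.47, lay below WT_CAF 5 (4.70) and KO_CAF 1 (3.98). The label of WT_CAF 1 is in doubt: whether it is a mixed sort or a mislabelled sample was not tested, and this doubt applies to every WT_CAF value that includes it. WT_tumor 4 held 2.60 FPKM of the epithelial adhesion molecule Epcam, where WT_tumor 1 to 3 held 129 to 549. Its mean log2(FPKM + 1) over the 8 epithelial markers was 5.98, against 7.95 to 9.31 in WT_tumor 1 to 3. Not all of these markers were low in it. Every WT_tumor library held at least 1188 FPKM of Krt8 and 438 of Krt19, and the sum in WT_tumor 4 was 2925 FPKM. The main results that rest on these libraries are given with and without them.

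Start-site windows of 6 of the 7 genes were read from RefSeq (build GRCm38.p6), each from 250 bases before to 50 bases after an annotated start, and St14 was without one. Those of Spint2 and Met are shown because both genes were higher in tumor cells and both windows held an E-box, and those of Mst1r because this gene, present in both cell types, has 2 annotated starts. Capitals mark the E-box CACCTG, searched on both strands and read as CAGGTG in these sequences, where it lies on the opposite strand. It is a motif bound by the Snail and Zeb repressors of epithelial genes. The Spint2 window, chr7:29281928-29282227 on the minus strand, held 3 matches, which began 74, 55 and 9 bases upstream of the start. The Met window, chr6:17463707-17464006 on the plus strand, held 1 match, 25 bases downstream of the start.
Spint2: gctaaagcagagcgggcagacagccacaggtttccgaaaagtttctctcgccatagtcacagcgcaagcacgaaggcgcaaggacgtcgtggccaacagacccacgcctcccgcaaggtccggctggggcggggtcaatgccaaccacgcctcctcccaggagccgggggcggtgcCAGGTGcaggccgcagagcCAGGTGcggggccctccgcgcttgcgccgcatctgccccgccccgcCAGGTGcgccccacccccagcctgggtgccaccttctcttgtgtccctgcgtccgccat
Met: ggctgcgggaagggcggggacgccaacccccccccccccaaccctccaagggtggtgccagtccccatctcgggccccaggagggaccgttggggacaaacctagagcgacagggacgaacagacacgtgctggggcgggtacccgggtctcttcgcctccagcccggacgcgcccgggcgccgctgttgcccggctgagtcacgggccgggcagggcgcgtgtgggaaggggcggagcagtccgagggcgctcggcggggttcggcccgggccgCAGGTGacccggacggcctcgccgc
Of 32851 windows of 300 bases, 20.2% held at least 1 match and 0.365% held 3 or more. The Spint1 window, both Hgf windows, the Mst1 window and both Mst1r windows held no match. The palindromic motif AACCGGTT of Grainyhead-like factors, which does not overlap the E-box, was in 0 of the 8 windows and in 0.146% of all windows. These matches describe letters in a window and no binding was measured.

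The 2 annotated starts of Mst1r lie 8114 bases apart, at chr9:107906639-107906938 and chr9:107914753-107915052 on the plus strand. In mice a start within the gene is known to give a short form of the receptor that lacks most of the extracellular part. The table holds 1 FPKM value for the whole gene, so the forms cannot be told apart here. Neither window holds capitals, since neither held a motif.
Mst1r, upstream start: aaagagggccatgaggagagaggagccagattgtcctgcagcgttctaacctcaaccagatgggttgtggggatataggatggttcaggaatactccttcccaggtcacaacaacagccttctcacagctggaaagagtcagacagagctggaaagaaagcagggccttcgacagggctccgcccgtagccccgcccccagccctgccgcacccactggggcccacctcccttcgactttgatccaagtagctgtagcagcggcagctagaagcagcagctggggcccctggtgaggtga
Mst1r, downstream start: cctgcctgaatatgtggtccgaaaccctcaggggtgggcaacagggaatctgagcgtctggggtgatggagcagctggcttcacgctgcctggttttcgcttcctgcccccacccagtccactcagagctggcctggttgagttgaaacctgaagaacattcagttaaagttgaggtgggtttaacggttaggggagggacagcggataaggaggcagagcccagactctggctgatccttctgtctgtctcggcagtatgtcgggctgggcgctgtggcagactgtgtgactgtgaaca

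The ligand Hgf was found almost wholly in fibroblasts. Its level was 9.90, 3.67 and 3.37 FPKM in NPF 1 to 3, 0.398, 20.2, 6.01, 9.59 and 6.14 in WT_CAF 1 to 5, and 2.16, 20.8 and 11.6 in KO_CAF 1 to 3. In tumor cells it was 0.0907, 0.0126, 0.177 and 0.181 FPKM in WT_tumor 1 to 4 and 0.805, 0.201 and 0.0910 in KO_tumor 1 to 3. The 3 fibroblast groups overlapped one another, and in 10 of the 11 fibroblast libraries, all but WT_CAF 1, Hgf lay above 1 FPKM, a level that 0 of the 7 tumor cell libraries reached. In order of means the groups were KO_CAF (11.5 ± 9.31 FPKM, SD), WT_CAF (8.46 ± 7.34), NPF (5.65 ± 3.69), KO_tumor (0.366 ± 0.384) and WT_tumor (0.115 ± 0.0799), and neighbours differed beyond their spread only between NPF and KO_tumor, where the libraries did not overlap. In bulk RNA, fewer cells of a type and less RNA per cell cannot be told apart.

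Hgf fell by 2.80 ± 0.80 (SE) on the log2(FPKM + 1) scale in WT_tumor against WT_CAF (limma, adjusted p = 0.024) and by 2.84 ± 0.81 in KO_tumor against KO_CAF (adjusted p = 0.019), and in both comparisons every tumor cell library lay below every fibroblast library, as did 7.01% and 21.3% of all tested genes. Within the libraries with a 6-base index in their label the differences were -2.65 and -2.56, and within those with a 16-base index -2.99 and -3.39. Hgf entered the tests only through fibroblast libraries, so it had to differ, and these p-values are a description only. The call was lost without several single libraries. Without WT_CAF 4 the WT difference was -2.65 (adjusted p = 0.066), without WT_tumor 1 it was -2.70 (0.084), without WT_CAF 3 it was -2.89 (0.10), and without KO_CAF 2, KO_CAF 3, KO_tumor 2 or KO_tumor 3 the KO difference was -2.71 to -2.18 (0.056 to 0.10). With no filter neither passed (adjusted p = 0.065 and 0.054), nor did the WT difference with only these 2 groups in the fit (0.097). Between the fibroblast groups Hgf was not called. In WT_CAF against NPF the value was -0.16 ± 0.91 (adjusted p = 0.96). Leaving out WT_CAF 1 turned it to 1.81 ± 0.79 (adjusted p = 0.33), and leaving out WT_CAF 2 moved it to -2.12 ± 0.79 (adjusted p = 0.11). With the index form in the model these 2 libraries alone set the size of WT_CAF against NPF, and the one that remains is assumed to vary like the other groups.

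Mst1 was near 0 throughout. It was listed at 0 in 6 of 18 libraries, at no more than 0.0600 FPKM in fibroblasts and no more than 0.404 FPKM in tumor cells, the latter in KO_tumor 1. With 0 libraries at 1 FPKM it did not enter the tests, and these values are too low to be compared. MST1 protein is known as a product of the liver that circulates in blood.

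**Figure D1:**
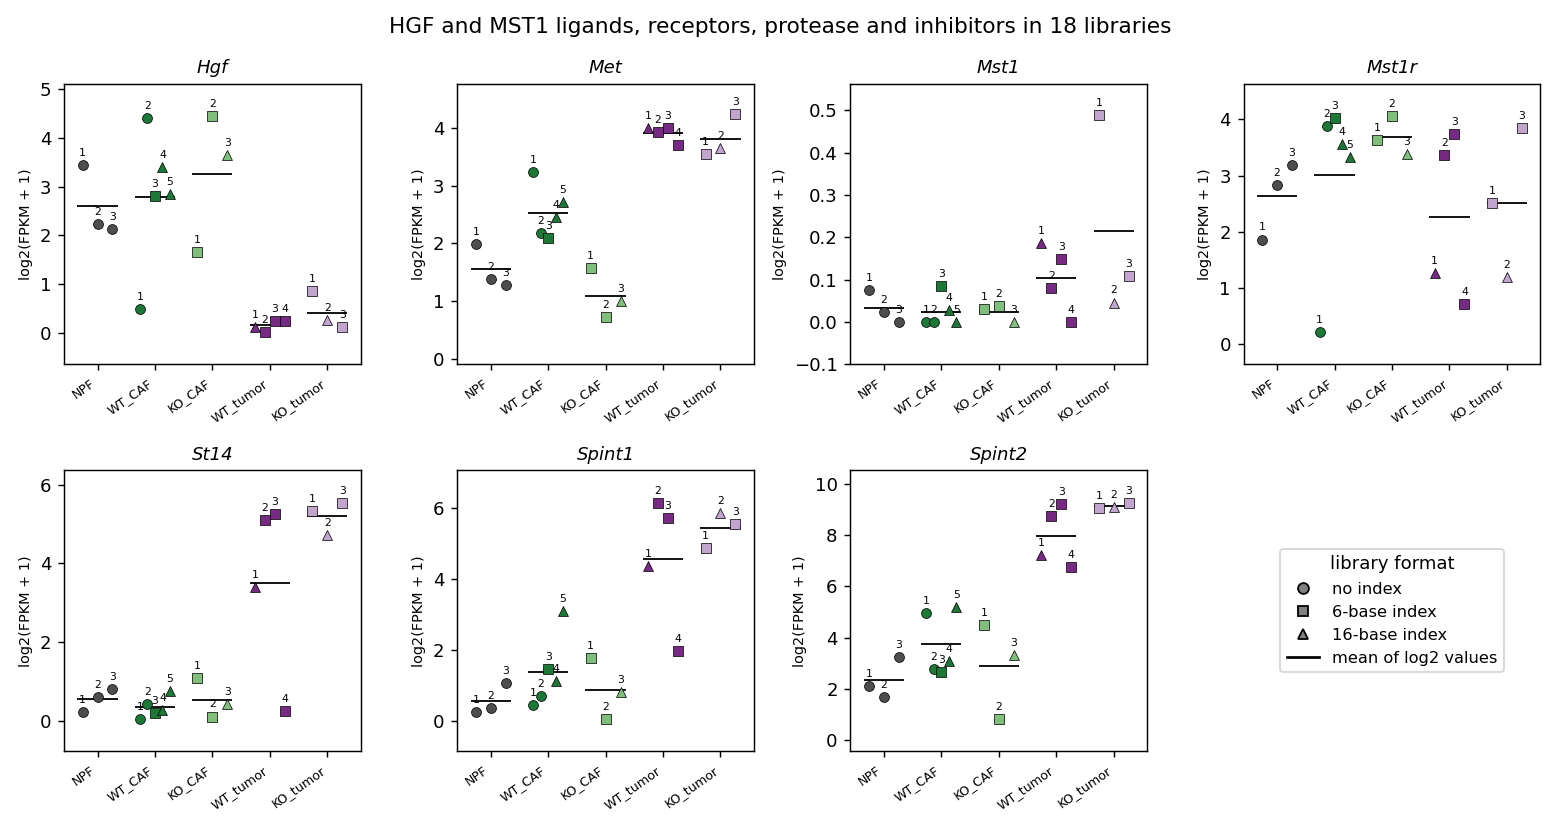
Expression of the 7 genes, on the log2(FPKM + 1) scale, arranged by group; points are single libraries with their replicate numbers, circles are libraries without an index, squares those with 6 and triangles those with 16 index bases, and horizontal lines are means of the log2 values of a group. Hgf is above 1 FPKM only in fibroblasts, Met is at 10.6 to 17.9 FPKM in all tumor cell libraries, Mst1r is spread in both cell types, St14 and Spint1 are high in tumor cells other than WT_tumor 4, and Spint2 is higher in all 7 tumor cell libraries than in any fibroblast library.

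The HGF receptor Met showed the opposite placement. It stood at 15, 14.3, 15 and 12.1 FPKM in WT_tumor 1 to 4 and at 10.6, 11.6 and 17.9 in KO_tumor 1 to 3. In fibroblasts it stood at 2.95, 1.61 and 1.41 FPKM in NPF, at 8.37, 3.52, 3.25, 4.48 and 5.56 in WT_CAF 1 to 5, and at 1.96, 0.646 and 0.989 in KO_CAF 1 to 3. All 7 tumor cell libraries lay above all 11 fibroblast libraries, and WT_tumor 4, low in Epcam, kept a Met level within the range of the others. By mean the order was WT_tumor (14.1 ± 1.39 FPKM), KO_tumor (13.4 ± 3.94), WT_CAF (5.04 ± 2.07), NPF (1.99 ± 0.835) and KO_CAF (1.20 ± 0.681), where the WT_tumor and KO_tumor libraries overlapped, as did those of NPF and KO_CAF. Hgf exceeded Met in 10 of 11 fibroblast libraries and Met exceeded Hgf in 7 of 7 tumor cell libraries, so the exception, again, was WT_CAF 1.

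Met was higher in tumor cells by 1.52 ± 0.32 on the log2(FPKM + 1) scale with Saa3 (WT_tumor against WT_CAF, limma adjusted p = 0.0050) and by 2.72 ± 0.32 without it (KO_tumor against KO_CAF, adjusted p = 1.6e-04). In these comparisons 5.66% and 20.6% of all tested genes had every tumor cell library above every fibroblast library, as Met had. The WT_CAF libraries also enter the comparisons within fibroblasts, so these are not independent. Without WT_CAF 3, the only WT_CAF library with a 6-base index, the WT difference was 1.26 ± 0.40 (adjusted p = 0.065). The difference between the KO and WT values, which is also the difference between the knockout effects in tumor cells and in fibroblasts, was 1.20 ± 0.46 and did not pass the test (adjusted p = 1, rank 52 by p).

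Within fibroblasts Met was the only tested member whose WT_CAF libraries did not overlap NPF or KO_CAF, though neither comparison passed the test. All 5 WT_CAF libraries (3.25 to 8.37 FPKM) lay above all 3 NPF libraries (1.41 to 2.95) and above all 3 KO_CAF libraries (0.646 to 1.96), while NPF and KO_CAF overlapped. In KO_CAF against WT_CAF the fitted difference of Met was -1.31 ± 0.33 (limma adjusted p = 1, rank 8 by p among 13369 genes). Of tested genes 0.733% had every KO_CAF library below every WT_CAF library, and 0% were called lower. The difference was -0.94 within the 6-base index libraries (2 against 1) and -1.59 within the 16-base index libraries (1 against 2), and lay between -1.55 and -1.14 when single libraries were left out. Without WT_CAF 1 the remaining WT_CAF libraries held 4.20 ± 1.05 FPKM (n = 4), still above all KO_CAF libraries. Epithelial markers were present in fibroblast libraries: they summed to 211, 2.62 and 56.4 FPKM in KO_CAF 1 to 3 and to 627, 29.9, 70.8, 44.8 and 347 in WT_CAF 1 to 5. KO_CAF 2 had the lowest sum and the lowest Met, WT_CAF 1 and 5 the highest sums and the highest Met, and KO_CAF 1 a higher sum but less Met than WT_CAF 2 to 4. By mean log2(FPKM + 1) of these markers WT_CAF 1 (3.47) lay below WT_CAF 5 (4.70) and KO_CAF 1 (3.98). Markers and Met thus moved together in part, and the part of epithelial RNA in these levels was not tested.

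In WT_CAF against NPF the difference of Met was 1.16 ± 0.36 (limma adjusted p = 0.14), where 5.13% of tested genes had every WT_CAF library above every NPF library, 0.277% were called higher and 0.673% lower. It depended on the WT_CAF libraries without an index: leaving out WT_CAF 1 gave 0.63 ± 0.40 (adjusted p = 0.54), and leaving out WT_CAF 2 gave 1.68 ± 0.40, which passed (adjusted p = 0.021). A model with no term for the index form gave 0.99 ± 0.29 (adjusted p = 0.086), or 0.81 ± 0.27 if WT_CAF 1 was dropped as well (adjusted p = 0.085). Acinar markers moved with this comparison too: 0 of 6 were above 0, with a median of -6.74 in WT_CAF against NPF, 0 of 6 were called, and their part in the NPF levels was not tested. In KO_tumor against WT_tumor Met was at -0.10 ± 0.30 (adjusted p = 1).

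Mst1r, the MST1 receptor, was present in both cell types. It stood at 2.63, 6.11 and 8.16 FPKM in NPF 1 to 3, at 0.161, 13.7, 15.3, 10.8 and 9.0 in WT_CAF 1 to 5, and at 11.4, 15.7 and 9.46 in KO_CAF 1 to 3. In tumor cells it stood at 1.39, 9.31, 12.4 and 0.637 FPKM in WT_tumor 1 to 4 and at 4.73, 1.29 and 13.4 in KO_tumor 1 to 3. The lowest values of all belonged to WT_CAF 1 and WT_tumor 4, the libraries that stood apart, followed by WT_tumor 1 and KO_tumor 2, the 2 tumor cell libraries with a 16-base index. Fibroblast libraries with that index, WT_CAF 4, WT_CAF 5 and KO_CAF 3, held 9.0 to 10.8 FPKM. The 4 lowest fibroblast libraries, WT_CAF 1 and NPF 1 to 3, all had no index, but WT_CAF 2, also without one, held 13.7 FPKM. The part of the index form in these levels was not tested. By mean the order was KO_CAF (12.2 ± 3.18 FPKM), WT_CAF (9.81 ± 5.92), KO_tumor (6.46 ± 6.21), WT_tumor (5.92 ± 5.81) and NPF (5.63 ± 2.79), and all neighbours in that order overlapped.

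No difference of Mst1r passed the test. In WT_tumor against WT_CAF it was at -1.83 ± 0.85 (limma adjusted p = 0.14) and in KO_tumor against KO_CAF at -1.18 ± 0.86 (adjusted p = 0.32). Without WT_CAF 1 the WT difference kept its size (limma adjusted p = 0.057), and without both WT_CAF 1 and WT_tumor 4 it was -1.29 (0.073). In WT_CAF against NPF the value was -0.58 ± 0.96 (adjusted p = 0.81). Leaving out WT_CAF 1 turned it to 1.25 ± 0.95 (adjusted p = 0.62), where WT_CAF 2 to 5 held 12.2 ± 2.83 FPKM, each above the highest NPF library. With all 5 WT_CAF libraries 5.13% of all tested genes had every WT_CAF library above every NPF library. The share without WT_CAF 1 was not counted, so this order of Mst1r is a description only. Mst1r exceeded Met in 9 of 11 fibroblast libraries and in 0 of 7 tumor cell libraries.

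The protease St14 was found in tumor cells and was low in fibroblasts. It stood at 9.58, 33.4, 37.5 and 0.195 FPKM in WT_tumor 1 to 4 and at 39.0, 25.3 and 45.6 in KO_tumor 1 to 3, against 0.0384 to 1.12 in the 11 fibroblast libraries. WT_tumor 4 thus lay within the fibroblast range, and the other 6 tumor cell libraries lay above it. Having entered the tests through 6 tumor cell libraries and 1 fibroblast library, St14 had to differ, and its p-values are a description only. St14 was higher by 3.02 ± 0.91 in WT_tumor against WT_CAF (limma adjusted p = 0.030) and by 4.66 ± 0.92 in KO_tumor against KO_CAF (adjusted p = 0.0028). The WT difference did not pass without WT_CAF 3, WT_CAF 4, WT_tumor 1, WT_tumor 2 or WT_tumor 3 (2.52 to 3.00, adjusted p = 0.061 to 0.16), nor with no filter (adjusted p = 0.080) or only these 2 groups in the fit (0.16), and was 3.98 without WT_tumor 4 (adjusted p = 1.4e-04), where the other WT_tumor libraries held 26.8 ± 15.1 FPKM (n = 3). In KO_tumor against WT_tumor St14 was at 1.70 ± 0.87 (adjusted p = 1), and at 0.60 without WT_tumor 4.

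Spint1, which encodes HAI-1, stood at 19.4, 69.4, 51.5 and 2.96 FPKM in WT_tumor 1 to 4 and at 28.4, 56.5 and 45.7 in KO_tumor 1 to 3. In fibroblasts it stood at 0.199, 0.302 and 1.12 FPKM in NPF, at 0.375, 0.635, 1.80, 1.20 and 7.57 in WT_CAF 1 to 5, and at 2.40, 0.0538 and 0.778 in KO_CAF 1 to 3. WT_CAF 5, the highest fibroblast library, lay above WT_tumor 4, the lowest tumor cell library. Spint1 was higher by 2.73 ± 0.84 in WT_tumor against WT_CAF (limma adjusted p = 0.034) and by 4.53 ± 0.86 in KO_tumor against KO_CAF (adjusted p = 0.0021). The WT difference did not pass without any 1 of the same 5 libraries (2.25 to 2.97, adjusted p = 0.066 to 0.17), and was 3.46 without WT_tumor 4 (adjusted p = 0.0022). It did not pass with a pseudocount of 0.1 FPKM (adjusted p = 0.055), with no filter (0.086) or with only these 2 groups in the fit (0.17). In KO_CAF against WT_CAF it was at -0.95 ± 0.88 (adjusted p = 1).

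Spint2, which encodes HAI-2, was the most abundant member. It stood at 148, 428, 603 and 106 FPKM in WT_tumor 1 to 4 and at 537, 546 and 619 in KO_tumor 1 to 3. Fibroblasts held 3.25, 2.2 and 8.44 FPKM in NPF, 30.3, 5.77, 5.31, 7.54 and 35.2 in WT_CAF 1 to 5, and 21.6, 0.774 and 8.92 in KO_CAF 1 to 3. Every tumor cell library lay above every fibroblast library, WT_tumor 4 included, and Spint2 exceeded both Spint1 and St14 in all 18 libraries. Of all tested genes 5.66% had every library higher in WT_tumor against WT_CAF, and 20.6% in KO_tumor against KO_CAF. Spint2 was higher by 4.43 ± 0.94 in WT_tumor against WT_CAF (limma adjusted p = 0.0050) and by 6.27 ± 0.95 in KO_tumor against KO_CAF (adjusted p = 6.2e-04). Without WT_CAF 3 the WT difference was 3.71 (adjusted p = 0.066), and without WT_tumor 4 it was 4.78 (adjusted p = 0.0044). In KO_tumor against WT_tumor Spint2 was at 1.14 ± 0.89 (adjusted p = 1), and at 0.75 without WT_tumor 4.

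Levels of the protease and its inhibitors moved with Epcam across libraries. Among fibroblasts Epcam was highest in WT_CAF 5 (12.1 FPKM) and KO_CAF 1 (7.03), which also held the highest Spint1, and lowest in NPF 2 (0.0648) and KO_CAF 2 (0.0962), of which KO_CAF 2 held the lowest Spint1 and Spint2. The epithelial markers summed to 347 FPKM in WT_CAF 5 and 211 in KO_CAF 1, and their part in the fibroblast levels of St14, Spint1 and Spint2 was not tested. WT_CAF 1 and WT_tumor 4 departed from that order for Spint2, with 30.3 and 106 FPKM at 0.220 and 2.60 FPKM of Epcam.

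**Figure D2:**
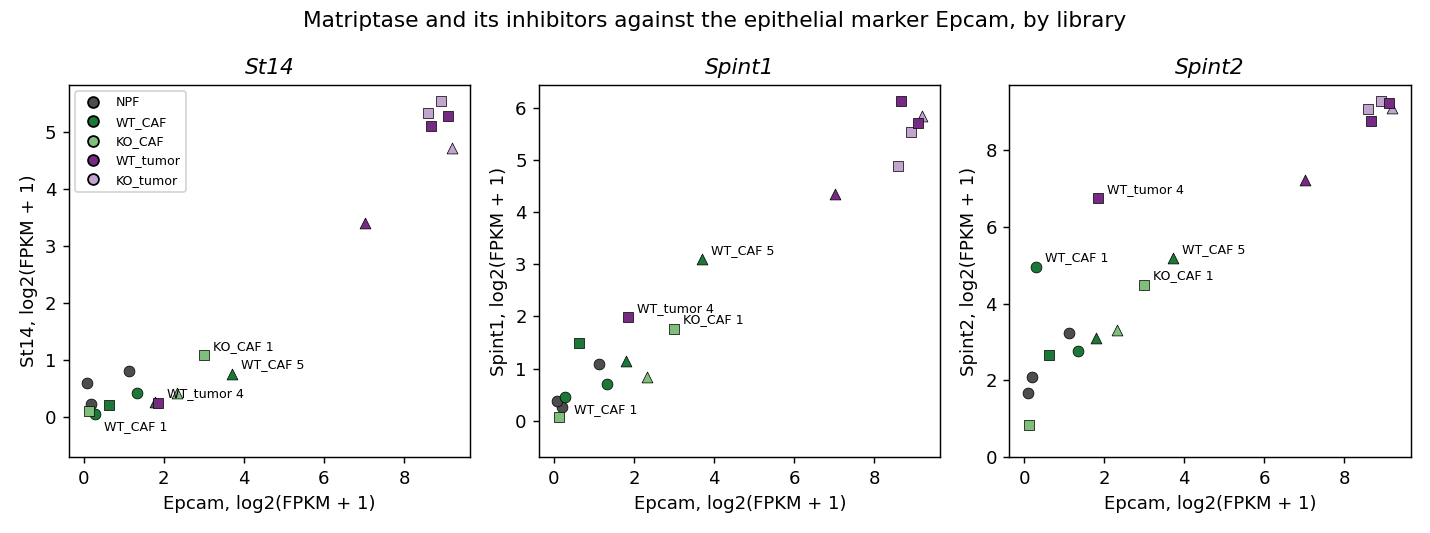
St14, Spint1 and Spint2 against the epithelial marker Epcam, each as log2(FPKM + 1); each point is 1 of 18 libraries, color gives the group and shape the form of the index (circle none, square 6 bases, triangle 16 bases). Tumor cell libraries other than WT_tumor 4 lie at the upper right, fibroblast libraries at the lower left, and WT_CAF 1 and WT_tumor 4 hold more Spint2 than other libraries with as little Epcam.

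Counted over the members, 4 of the 6 tested were higher and 1 lower in WT_tumor against WT_CAF, with a median difference of 2.12. Over all tested genes 21.5% were called in this comparison, 9.05% higher and 12.5% lower, and the median was 0.07. The same 4 were higher and Hgf lower in KO_tumor against KO_CAF (median 3.63), where 28.4% of tested genes were called, 13% higher and 15.4% lower, with a median of 0.05. Hgf entered the tests only through fibroblast libraries, and St14 through 6 tumor cell libraries and 1 fibroblast library, so both had to differ, and the counts describe the members and support nothing about them as a set. The count in WT_tumor against WT_CAF rested on single libraries: it was 0 without WT_CAF 3, 2 without WT_CAF 4 or WT_tumor 1, 3 without WT_tumor 2 or WT_tumor 3, and 5 without WT_CAF 1, in the fit without the index form, and without both WT_CAF 1 and WT_tumor 4. It was 2 with only these 2 groups in the fit, 2 with no filter on low values and 4 with a pseudocount of 0.1 FPKM. In KO_tumor against KO_CAF it was 4 or 5 throughout. With the index form in the model WT_CAF 1 enters the spread of these differences but not their size, so the counts without it were largely fixed.

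**Figure D3:**
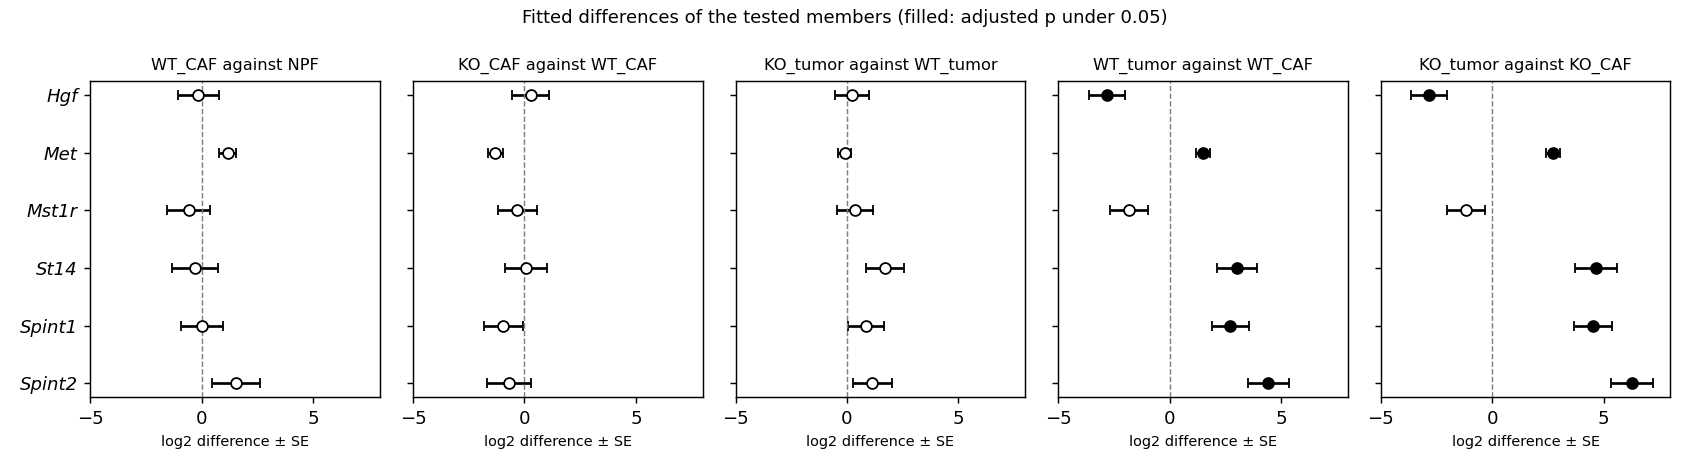
Fitted log2(FPKM + 1) difference (first group minus second) ± SE for the 6 tested members in 5 comparisons; filled points have an adjusted p under 0.05. Met, St14, Spint1 and Spint2 are filled on the right and Hgf on the left in both comparisons of tumor cells with fibroblasts, and no point is filled in the other 3.

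Between fibroblast groups and between tumor cell groups, 0 of 6 tested members were called by limma in any direction. The share of all tested genes called was 0.950% in WT_CAF against NPF, 0.00748% in KO_CAF against WT_CAF and 0% in KO_tumor against WT_tumor. At an unadjusted p under 0.05 there were 2254, 125 and 528 genes, and Met was among them in the first 2 comparisons. In the last 2 these were fewer genes than chance alone gives at that threshold over 13369 genes. In the test of whether the knockout effect differed between tumor cells and fibroblasts 0% of genes were called. There 185 had an unadjusted p under 0.05, Met among them, again fewer than chance alone gives.

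Other genes of the 2 pathways were read from a list of 31, of which 30 were tested. In WT_tumor against WT_CAF 7 were higher and 4 lower (median 0.32), where 9.05% of all tested genes were called higher and 12.5% lower, and in KO_tumor against KO_CAF 11 were higher and 4 lower (median 0.10), where 13% and 15.4% were. With WT_CAF 1 left out the counts were 8 and 5, and 12 and 6, and all 11 and all 15 earlier calls were among them. In this model WT_CAF 1 enters the spread of these differences but not their size, so that overlap was largely fixed in advance. With WT_tumor 4 left out too the counts were 9 and 5, and 12 and 6.

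Among proteases that activate the ligands or act beside matriptase, with the urokinase receptor counted among them, 3 of 8 were higher and 1 lower in WT_tumor against WT_CAF, and 6 were higher and 1 lower in KO_tumor against KO_CAF. Tmprss4 stayed at or under 0.562 FPKM in fibroblasts, Hgfac, Tmprss2 and Prss8 each reached 1 FPKM in 1 fibroblast library, so these 4 entered the tests through tumor cells and had to differ, and Hpn reached 1 FPKM in 3 fibroblast libraries. The protease counts are therefore a description only. Hgfac, the HGF activator, a serine protease that cuts the HGF and MST1 precursors, stood at 28.3, 15.3, 22.1 and 5.82 FPKM in WT_tumor 1 to 4 and at 24.7, 14.6 and 52.9 in KO_tumor 1 to 3, against 0.0599 to 1.18 in fibroblasts. Every tumor cell library lay above every fibroblast library for Hgfac. Of all tested genes 5.66% had every library higher in WT_tumor against WT_CAF, and 20.6% in KO_tumor against KO_CAF. The differences of Hgfac were 3.72 ± 0.49 (limma adjusted p = 5.1e-04) and 4.58 ± 0.50 (adjusted p = 1.0e-04). The membrane proteases Tmprss2 (3.09 ± 0.92 and 4.18 ± 0.93) and Tmprss4 (3.21 ± 1.07 and 4.36 ± 1.09) were higher in both comparisons (limma adjusted p between 0.0054 and 0.046). Plat, the tissue plasminogen activator, was lower in both, at -1.59 ± 0.52 and -1.79 ± 0.53. Hepsin (Hpn), another membrane protease that cuts HGF, and prostasin (Prss8), a partner of matriptase, were higher in KO_tumor against KO_CAF, at 3.38 ± 0.92 and 3.19 ± 0.80 on the log2 scale. In WT_tumor against WT_CAF they were at 2.38 ± 0.90 and 2.01 ± 0.79 and were not called (limma adjusted p = 0.074 and 0.083). With WT_CAF 1 and WT_tumor 4 left out they were called there too, at 3.23 ± 0.55 and 2.78 ± 0.48 (adjusted p = 0.0012 for each). Urokinase (Plau) was not called, at -2.04 ± 0.98 and -0.66 ± 0.99, and ranged from 1.80 to 278 FPKM in fibroblasts and from 1.89 to 57.1 in tumor cells.

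Receptor partners were mostly higher in tumor cells. In WT_tumor against WT_CAF 4 of 6 were higher and 1 lower, where 9.05% and 12.5% of all tested genes were. In KO_tumor against KO_CAF 5 were higher and 1 lower, where 13% and 15.4% were. The laminin receptor chains Itgb4 (3.69 ± 0.54 and 4.68 ± 0.55) and Itga6 (3.6 ± 0.81 and 4.02 ± 0.82), and the hyaluronan receptor Cd44 (2.15 ± 0.48 and 2.2 ± 0.48), which can present HGF to MET, were higher in both (limma adjusted p between 1.5e-04 and 0.0070). Nrp1, a semaphorin and growth factor co-receptor, was lower in both, at -2.38 ± 0.57 and -2.60 ± 0.58. Sdc1, a heparan sulfate proteoglycan that binds HGF, measured 17.8, 17.4 and 11.03 FPKM in NPF 1 to 3. Over all tested genes 5.13% had every WT_CAF library above every NPF library, and 0.277% were called higher. WT_CAF 1 to 5 held 315, 121, 79.2, 58.5 and 136 FPKM of Sdc1, all above NPF. It was the only 1 of the 30 called in WT_CAF against NPF (3.61 ± 0.53, limma adjusted p = 0.0041), and leaving out WT_CAF 1 gave 2.92 ± 0.61 (adjusted p = 0.037).

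Of 11 adaptors that carry the MET signal 0 were higher and 1 was lower in each comparison with all libraries in the fit. Over all tested genes 9.05% were called higher and 12.5% lower in WT_tumor against WT_CAF, and 13% and 15.4% in KO_tumor against KO_CAF. The counts of adaptors and restraints are a description only. The transcription factor Stat3 was lower in WT_tumor against WT_CAF (-1.27 ± 0.43, limma adjusted p = 0.048) and the adaptor Shc1 in KO_tumor against KO_CAF (-0.85 ± 0.29, adjusted p = 0.042). With WT_CAF 1 left out both were lower in both comparisons (adjusted p = 0.0025 and 0.0034 for Stat3, 0.028 and 0.018 for Shc1), and the adaptor Grb2 was higher in KO_tumor against KO_CAF (0.58 ± 0.20, adjusted p = 0.037). The docking protein Gab1, a direct partner of MET, was at -0.57 ± 0.37 and -0.78 ± 0.37 and was not called. Of 5 restraints 1 was lower in both comparisons: decorin (Dcn), a matrix proteoglycan that binds and antagonizes MET, at -8.31 ± 1.47 and -8.46 ± 1.5 (limma adjusted p = 0.0019 and 0.0014), with 49.3 (WT_CAF 1) to 9938 FPKM in fibroblasts and 2.15 to 86.5 in tumor cells. Decorin is itself an abundant fibroblast transcript. With WT_CAF 1 left out the receptor phosphatase Ptprj was called lower as well in KO_tumor against KO_CAF. Leaving out WT_CAF 1 changed the spread and not the size of these differences.

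**Figure D4:**
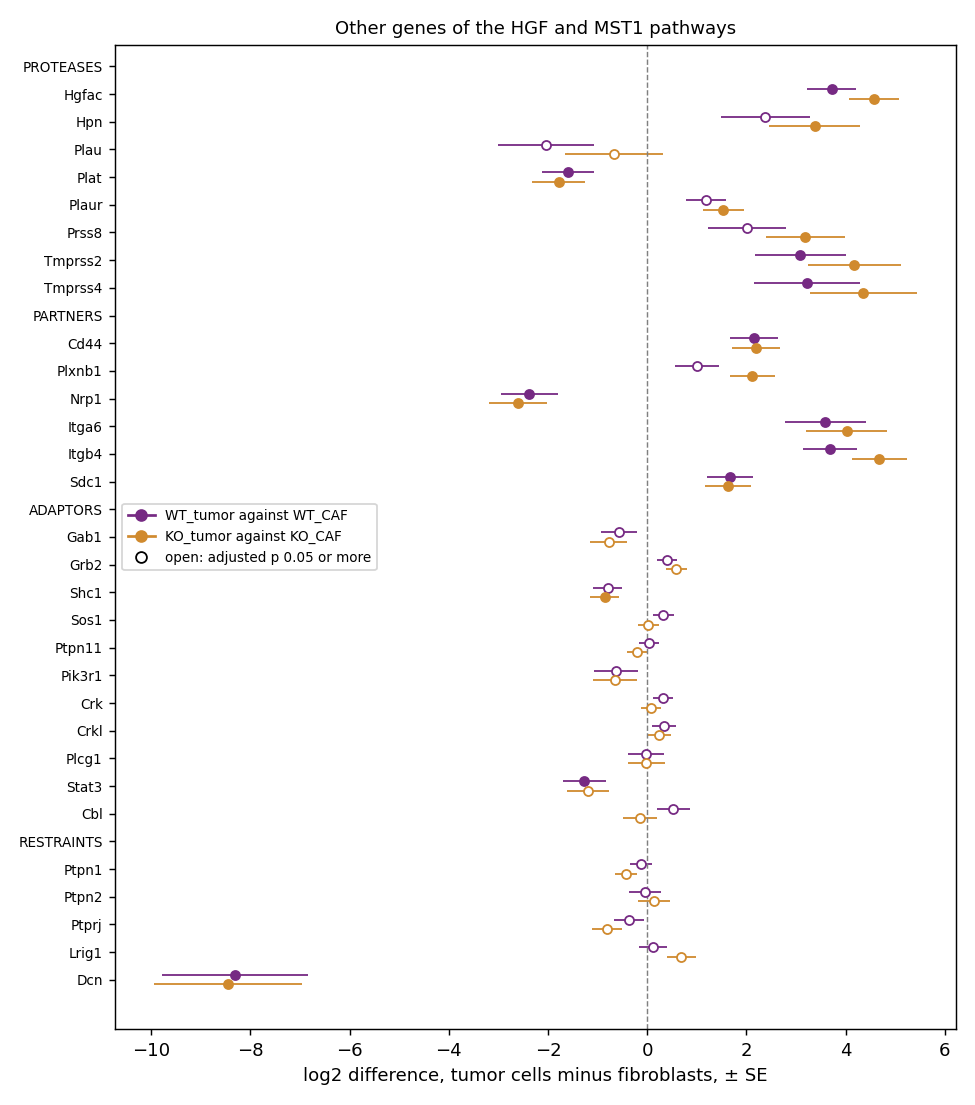
Fitted log2(FPKM + 1) difference, tumor cells minus fibroblasts, ± SE for the 30 tested pathway genes by role, with Saa3 (purple) and without (orange); filled points have an adjusted p under 0.05. Most proteases and partners lie to the right, most adaptors lie near 0 with Stat3, Shc1, Gab1 and Pik3r1 to the left, and Dcn lies at -8.31 and -8.46.

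The genes whose levels ran most like each member were found by Pearson correlation of log2(FPKM + 1) over the 18 libraries, which share the contrast between fibroblasts and tumor cells. Hgf ran most like Art3 (r = 0.977), the phosphodiesterase Pde1a (0.971) and the collagen Col28a1 (0.959). Met ran most like Ociad2 (0.933), the forkhead factor Foxq1 (0.933) and the fatty acid elongase Elovl7 (0.929). St14 ran most like the epithelial small GTPase Rab25 (0.996), the potassium channel Kcnk1 (0.992) and Arhgef16 (0.991), Spint1 most like the claudin Cldn7 (0.981), Epcam (0.981) and Dennd2d (0.970), and Spint2 most like E-cadherin, Cdh1 (0.982), Krt19 (0.976) and cathepsin E, Ctse (0.972). Mst1r was matched less closely, by Nrbp2 (0.899), Mtus1 (0.878) and the noncoding RNA Airn (0.874). Without WT_CAF 1 its correlations with Mtus1 and Airn were 0.843 and 0.821, and Airn then ranked 19, while the first-ranked gene of each of the other members other than Spint2 kept its rank. Among the members themselves St14 and Spint1 had r = 0.949, Spint1 and Spint2 0.940, Met and Spint2 0.897 and Hgf and Met -0.826, whereas Mst1r and St14 had 0.0203.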

How the data were processed

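Poly(A) RNA libraries of sorted cells were prepared with the TruSeq RNA kit for a HiSeq2000 instrument (labels' protocols). The table the authors deposited holds FPKM for 23951 genes. Cufflinks 2.2.1 and Cuffnorm, TopHat2 2.0.10, SAMtools 0.1.19 and Bowtie 1.0.0 are named, per the submitters' processing notes, and mm9 is the mouse build among those listed. Order, settings, strand use and annotation: not given in the sources used here. Such FPKM are model estimates, no counts were used, depth in fragments is unknown, and an abundant gene listed at 0 may be a failed estimate. In RefSeq the noncoding Gm31113, Gm52893 and Gm16071 overlap Hgf, Met and St14, and are not separate rows of the table.

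The 13369 genes that reached 1 FPKM in 3 libraries or more were fitted on log2(FPKM + 1) with limma 3.58.1 in R 4.3.3 (empirical Bayes with a trend, two-sided), in 1 model of all 18 libraries with group and, additively, the index form of the label: none (5 libraries), 6 bases (8) or 16 bases (5). This left 11 residual degrees of freedom. The form was taken as a library format. Besides NPF, WT_CAF 1 and 2 alone have no index. Since every tumor cell library has one, WT_CAF 1 and 2 do not enter the size of tumor cell against fibroblast differences in this model. P-values were adjusted by Benjamini-Hochberg over all genes tested, and an adjusted p under 0.05 was called. A difference on this scale understates the change of low genes. The procedure was tested on simulated data. Members and lists were chosen with earlier results of these data known. All members were described, and of the pathway list genes called in a comparison, at most 4 per role. Gab1, Plau, Prss8, Grb2, Ptprj and, in the comparison where it was not called, Hpn were named outside that rule after their values were seen. Alternatives were the model without index form, 2 groups only, a pseudocount of 0.1, no filter, a filter of 5 FPKM, a common FPKM sum, quantile normalization, no trend, and each replicate left out. Leaving out WT_CAF 1 and WT_tumor 4 together, and WT_CAF 1 without index form, were added after seeing the data.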

Additional observations from a re-analysis of the deposited data

Results flagged for a closer look

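Spint1 in WT_CAF 5, at 7.57 FPKM, stood far from the other 4 WT_CAF libraries (0.375 to 1.80 FPKM): its gap to the next library was 0.803 of the range of the group, against a critical value of 0.710. Of 14 sets of libraries examined this way 1 stood out, and chance alone gives about 1 in 20. WT_CAF 5 also held the highest Epcam of its group (12.1 FPKM against 0.220 to 2.46), and the part of epithelial RNA in this value was not tested.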

How the results depend on the processing

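No paired analysis was possible because the labels give no replicate numbers. For tumor cells against fibroblasts, 183 of 210 alternative values of the 6 tested members kept their direction and their side of the threshold, 27 fell short of it and 0 reversed. Part of this tally was fixed in advance. WT_CAF 1 and 2 do not enter the size of these differences with the index form in the model, and Hgf and St14 had to differ. Mst1r kept its side because it was called in no setting. The refits share most libraries, so the tally is a description only. The count of members called in WT_tumor against WT_CAF, 5, was 2 with only the 2 groups compared and 2 with no filter, and 0 to 5 when single libraries were left out. Over all genes the count there was 2880, against 742 with only the 2 groups compared, 1194 without WT_CAF 3 and 1827 without WT_tumor 1. In KO_tumor against KO_CAF it was 3798, against 2201 without KO_CAF 2 and 2308 without KO_CAF 3. The cause was not tested. In WT_CAF against NPF the count of members called, 0, was 0 to 1 when single libraries were left out, the 1 being Met without WT_CAF 2. In that comparison Hgf (-0.16) was at 0.19 without the index form, 0.013 with a common FPKM sum, 0.76 without WT_CAF 1 and index form and 1.81 without WT_CAF 1 and WT_tumor 4, with -2.12 to 1.81 when single libraries were left out. Mst1r (-0.58) was at 0.37 without the index form, 1.07 without WT_CAF 1 and index form and 1.25 without WT_CAF 1 and WT_tumor 4, with -2.41 to 1.25 when single libraries were left out. Met in KO_tumor against WT_tumor (-0.10) was at -0.35 to 0.032 when single libraries were left out. Values under 1 FPKM rest on an unknown and probably small number of fragments.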
